A study of Mus musculus with 22 samples.

Results

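Mt1, Mt2 and Mt3 encode the mouse metallothioneins of the brain, and Gm45774 is a gene annotated as antisense that lies opposite Mt2. These 4 genes of the 53379 in the deposited table were matched by Ensembl identifier, and all 4 passed the filter on low counts. They were selected on results of these libraries, with the kainate against sham values of both nuclear fractions known, so those values are given as a description. Where the calls of these genes from the fits over all genes are printed for that contrast, nothing is read from them. The comparison of NeuN+ with NeuN- nuclei was not used to choose them and is tested.

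Metallothioneins are small, cysteine-rich proteins that bind zinc and copper and buffer free metal ions in the cell. Transcription of Mt1 and Mt2 is induced by zinc through the sensor MTF-1, which binds metal response elements in their promoters, and also by glucocorticoids, cytokine signalling through STAT3 and oxidative stress. In the brain Mt1 and Mt2 are known mainly from astrocytes, whereas Mt3, also named growth inhibitory factor, is enriched in the nervous system and responds less to metals.

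The libraries came from hippocampal nuclei of male C57/BL6N mice killed 24 h after an injection above the right hippocampus of kainate, an agonist of glutamate receptors that provokes status epilepticus, or of saline (sham). Only kainate mice with convulsive seizures were included, and the hippocampus studied was the left one, contralateral to the injection, by the titles and the design, although the deposited protocol names the right. The hippocampi of 8 mice per treatment were pooled into 3 samples, from which NeuN+ (neuronal) and NeuN- (mainly glial) nuclei were sorted by staining for the protein NeuN, and the NeuN- nuclei can include those of endothelial cells, pericytes and some neurons. This gave 3 sham NeuN+, 3 kainate NeuN+, 2 sham NeuN- and 3 kainate NeuN- mRNAseq libraries, since sham NeuN- replicate 2 failed.

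The 11 libraries held 12058875 to 45428465 counts. Sham NeuN- replicate 1 and kainate NeuN- replicate 2 were low-input libraries, with 0.05 ng of starting RNA and 15 cycles of PCR against 1 ng and 10 cycles for the rest. All 8 neuron markers were higher in NeuN+ nuclei, and 9 of 10 astrocyte, 6 of 6 microglia and 6 of 6 oligodendrocyte markers were higher in NeuN- nuclei (edgeR quasi-likelihood test, FDR below 0.25), so the sort labels matched their markers. The replicate 1 pools held the highest glial signal in the NeuN- nuclei: the summed level of the 10 astrocyte markers was 6390 CPM (read counts normalised to library size) in sham NeuN- replicate 1 and 1692 in replicate 3, against 4008, 1780 and 597 in kainate NeuN- replicates 1, 2 and 3. A lower level of such a marker can come from fewer cells of that type or from less RNA per cell, and these cannot be told apart in sorted bulk nuclei.

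The genes lie together on chromosome 8 (mm10, GENCODE M21 coordinates). Mt3 (ENSMUSG00000031760.9) is at chr8:94152607-94154146, Mt2 (ENSMUSG00000031762.7) at chr8:94172664-94173568 and Mt1 (ENSMUSG00000031765.8) at chr8:94179082-94180327, all 3 on the plus strand. Gm45774 (ENSMUSG00000110588.1) is a single exon at chr8:94170748-94173412 on the minus strand. It starts inside the last exon of Mt2 and runs through both Mt2 introns and 1916 bases past the Mt2 start. Of the 588 exonic bases of Mt2, 432 lie inside the Gm45774 exon and 156, all at the 3' end, do not. Of the 2665 bases of Gm45774, 2233 lie outside Mt2 exons.

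**Figure D1:**
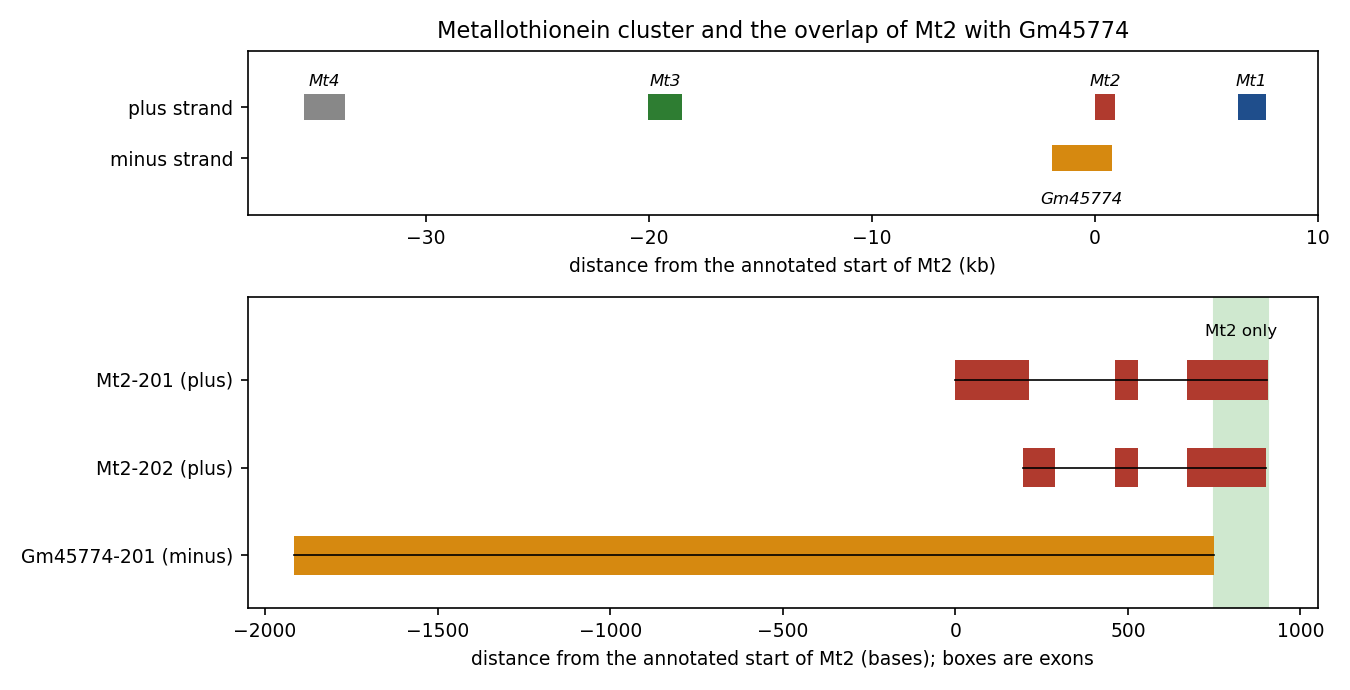
Upper panel: the metallothionein genes and Gm45774 by strand, with distance from the annotated Mt2 start in kb. Lower panel: exons (boxes) of both Mt2 transcripts and of Gm45774 with distance in bases, where the shaded 156 bases are the part of Mt2 that Gm45774 does not cover.

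This overlap bears on every value of both genes. The kit used for the libraries does not mark the strand of the RNA, and the strand setting of the counting was not given in the sources used here. Reads of Mt2 and of Gm45774 in the shared bases therefore cannot be told apart, and whether such reads were left out or given to a gene is not stated. With the usual default of the counting program, a read that overlaps exons of 2 genes is not counted. Reads from Mt2 introns, which lie wholly inside the Gm45774 exon, would be counted for Gm45774 in a library without strand. Mt1 and Mt3 shared no exonic base with another gene. Sharing of reads by sequence was limited as well: the longest identical run between the main transcripts was 20 bases for Mt1 and Mt2, 27 for Mt1 and Mt3, and 20 for Mt2 and Mt3.

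Mt1 and Mt2 are the textbook targets of MTF-1, and their upstream sequences are shown because their levels moved together over the libraries. The letters are from RefSeq (GRCm38.p6, plus strand, 5' to 3') and end before the first annotated exon base, at chr8:94178839-94179081 for Mt1, chr8:94172368-94172617 for Mt2 and chr8:94152357-94152606 for Mt3. Capitals mark the core of the metal response element, searched as TGCACNC and TGCGCNC on both strands.
Mt1: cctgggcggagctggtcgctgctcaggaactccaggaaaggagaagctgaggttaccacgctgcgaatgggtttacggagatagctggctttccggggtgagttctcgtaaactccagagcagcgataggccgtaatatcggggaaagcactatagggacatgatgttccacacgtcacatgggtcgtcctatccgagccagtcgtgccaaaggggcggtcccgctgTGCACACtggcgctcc
Mt2: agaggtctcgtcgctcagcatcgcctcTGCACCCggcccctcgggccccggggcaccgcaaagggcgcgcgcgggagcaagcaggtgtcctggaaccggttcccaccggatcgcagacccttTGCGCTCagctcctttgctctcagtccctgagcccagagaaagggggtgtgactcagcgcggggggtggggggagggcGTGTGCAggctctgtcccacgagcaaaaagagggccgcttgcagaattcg
Mt3: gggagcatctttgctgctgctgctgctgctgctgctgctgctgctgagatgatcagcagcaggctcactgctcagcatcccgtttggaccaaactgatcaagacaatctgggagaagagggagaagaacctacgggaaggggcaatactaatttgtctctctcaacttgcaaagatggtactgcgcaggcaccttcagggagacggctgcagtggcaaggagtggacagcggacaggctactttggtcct

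The whole 250 bases before the RefSeq start, of which 243 are printed for Mt1, held 3 cores for Mt2, 1 for Mt1 and 0 for Mt3. Of 27025 RefSeq promoters of this length, 21.3% held at least 1 core and 1.28% at least 3. The count depends on which annotated start is used. Before Mt1-202 and Mt1-203, annotated Mt1 transcripts that start further downstream, the 250 bases held 5 cores, a number reached by 0.0703% of the RefSeq promoters, and before Mt3-202 and Mt3-203, which also start further downstream, they held 3. The window before Gm45774 held 0. The core of the antioxidant response element, TGACNNNGC on both strands, was found once before Mt2, at -79 to -71 from the RefSeq start, and in 10.1% of the promoters. A match is a description of the letters, not a binding site.

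In NeuN+ nuclei, Mt1 was several times higher after kainate than after sham injection. In sham NeuN+ replicates 1, 2 and 3 its level was 22.4, 10.8 and 9.54 CPM, and in kainate NeuN+ replicates 1, 2 and 3 it was 64.9, 58.5 and 80.6 CPM. The lowest kainate library lay well above the highest sham library. The fitted log2 fold change of Mt1 was 2.26 ± 0.63 (SE).

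Mt2, its neighbour with the same metal-buffering role, was counted far less. Its level in sham NeuN+ replicates 1, 2 and 3 was 0.336, 0.431 and 0.0645 CPM, from 5, 15 and 2 counts, and in kainate NeuN+ replicates 1, 2 and 3 it was 4.41, 1.96 and 3.11 CPM, from 62, 77 and 69 counts. Again the groups did not overlap. The log2 fold change was 3.50 ± 1.03, with the largest SE of the 4 genes and a sham level that rests on few counts.

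Gm45774, the antisense gene, had closely spaced libraries within each NeuN+ group. In sham NeuN+ replicates 1, 2 and 3 its level was 0.739, 0.660 and 0.677 CPM, and in kainate NeuN+ replicates 1, 2 and 3 it was 6.47, 4.995 and 5.63 CPM. The groups did not overlap, and the log2 fold change was 3.04 ± 0.62.

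Mt3, the neural form, was the most abundant of the 4 genes in NeuN+ nuclei. Its level was 98.9, 43.3 and 53.9 CPM in sham NeuN+ replicates 1, 2 and 3, and 100.4, 84.2 and 82.5 CPM in kainate NeuN+ replicates 1, 2 and 3. The sham replicate 1 library lay between the kainate libraries, so the groups overlapped, and the log2 fold change was 0.45 ± 0.46.

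Thus 3 of the 4 genes had kainate NeuN+ libraries wholly above the sham libraries, as did 4.26% of all 40714 genes tested. In the fit over all genes, 1 of the 4, Gm45774, was called higher at FDR below 0.25 by edgeR, beside 0.157% of all genes called higher and 0.00737% called lower. Nothing is read from these counts, because the genes were selected on this contrast. Leaving out any 1 of the 6 NeuN+ libraries removed the call of Gm45774 and left its log2 fold change between 2.94 and 3.12. With single libraries left out, that of Mt1 ranged from 2.04 to 2.74, that of Mt2 from 3.00 (without sham NeuN+ replicate 3) to 4.097 (without sham NeuN+ replicate 2), and that of Mt3 from 0.22 (without sham NeuN+ replicate 2) to 0.87 (without sham NeuN+ replicate 1).

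**Figure D2:**
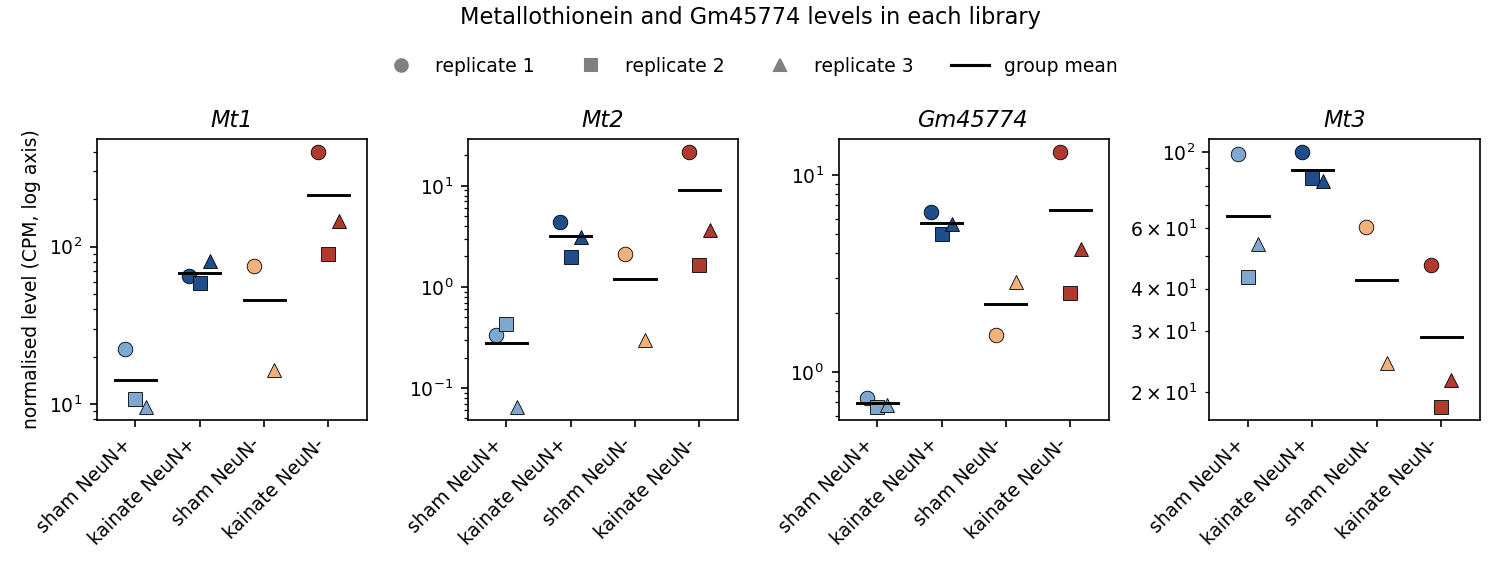
Normalised level (CPM, log axis) of each gene in each of the 11 libraries, by group; symbols mark the replicate number and lines the group means. For Mt1, Mt2 and Gm45774 the kainate NeuN+ libraries lie above all sham NeuN+ libraries, and the replicate 1 library is the highest of the kainate NeuN- libraries for all 4 genes.

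Sham and kainate NeuN+ libraries of the same number deviated together from their group means in replicates 1 and 3 (r = 0.64 and 0.49). In replicate 2 they hardly did (r = 0.16), and the pools of the 2 treatments hold different mice. The number was used as a block in an alternative fit. With the number as a block, the log2 fold changes in NeuN+ nuclei were 2.36 ± 0.22 for Mt1, 3.44 ± 0.47 for Mt2, 3.02 ± 0.41 for Gm45774 and 0.53 ± 0.19 for Mt3. The block changed the estimates little and the errors much, and all 4 genes were then called higher, beside 3.19% of all genes; nothing is read from this count either, since it is on the contrast used to select them. Within a number, the ratio of kainate to sham NeuN+ level was 2.90, 5.43 and 8.44 for Mt1 in replicates 1, 2 and 3. For Gm45774 it was 8.77, 7.56 and 8.32, and for Mt3 it was 1.01, 1.95 and 1.53. The ratio of Mt1 differed among the numbers by more than that of Gm45774, and that of Mt3 was near 1 in replicate 1. For Mt2 it was 13.1, 4.56 and 48.2, the widest range of the 4 genes, and the last of these rests on 2 sham counts.

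Mt1 reached its highest levels in kainate NeuN- nuclei. It was 75.5 and 16.4 CPM in sham NeuN- replicates 1 and 3, and 399, 90.2 and 145 CPM in kainate NeuN- replicates 1, 2 and 3. The kainate libraries lay above the sham libraries, although the sham replicate 1 library came close to kainate replicate 2, and both of these were low-input libraries. The log2 fold change was 2.20 ± 0.73. It was 3.71 without sham NeuN- replicate 1, 1.19 without kainate NeuN- replicate 1 and 4.08 without both low-input libraries.

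Mt2 was also highest in kainate NeuN- replicate 1. Its level was 2.11 and 0.298 CPM in sham NeuN- replicates 1 and 3, and 21.6, 1.66 and 3.68 CPM in kainate NeuN- replicates 1, 2 and 3. The groups overlapped, since kainate replicate 2 was below sham replicate 1. The log2 fold change was 2.91 ± 1.14, with 4.92 when sham NeuN- replicate 1 was left out, 0.99 when kainate NeuN- replicate 1 was left out and 5.41 without both low-input libraries.

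The antisense gene Gm45774 did not share the sham order of Mt1 and Mt2. Its level was 1.53 and 2.88 CPM in sham NeuN- replicates 1 and 3, and 13.1, 2.51 and 4.21 CPM in kainate NeuN- replicates 1, 2 and 3. Sham replicate 3 lay above kainate replicate 2, so the groups overlapped. The log2 fold change was 1.57 ± 0.67, and 0.54 without kainate NeuN- replicate 1.

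Mt3 was lower on average in kainate than in sham NeuN- nuclei, within the spread of the libraries. It was 60.6 and 24.2 CPM in sham NeuN- replicates 1 and 3, and 47.0, 18.0 and 21.7 CPM in kainate NeuN- replicates 1, 2 and 3. The groups overlapped, and the log2 fold change was -0.56 ± 0.51. Its sign depended on the libraries: it was 0.28 without sham NeuN- replicate 1, 0.52 without both low-input libraries and -1.23 without kainate NeuN- replicate 1.

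Of the 4 genes, Mt1 alone had kainate NeuN- libraries wholly above the sham libraries, as did 4.7% of all genes. By edgeR 0 of the 4 were called in NeuN- nuclei, beside 0.0933% of all genes called higher and 0.00737% called lower; at an unadjusted p under 0.05, 3 were higher, beside 1.35% of all genes, and DESeq2's Wald test called 1 higher, Mt1, beside 1.07% of the genes it gave an adjusted p. As in NeuN+ nuclei, nothing is read from these counts, because the genes were selected on this contrast.

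The NeuN- nuclei came from the same pools as the NeuN+ nuclei, but only the numbers 1 and 3 have a library of both treatments. Within these numbers, the ratio of kainate to sham NeuN- level was 5.29 and 8.82 for Mt1, and 10.3 and 12.4 for Mt2. It was 8.55 and 1.47 for Gm45774, and 0.775 and 0.894 for Mt3. So Mt1, Mt2 and Gm45774 were higher in the kainate library of both numbers and Mt3 was lower in both. With the number as a block, the log2 fold changes in NeuN- nuclei were 2.76 ± 0.27 for Mt1, 3.45 ± 0.52 for Mt2, 1.76 ± 0.48 for Gm45774 and -0.27 ± 0.24 for Mt3, and the first 3 were called higher, beside 2.93% of all genes higher and 2.86% lower. Nothing is read from this count, for the same reason. The blocked NeuN- values rest on these 2 pairs, since kainate NeuN- replicate 2 has no sham partner and is fitted by its own term. Pair 1 sets a low-input sham library against a kainate library with 1 ng of RNA. The small SEs and the calls with the block, here and below for NeuN- nuclei, thus rest on little replication.

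Kainate NeuN- replicate 1 was also the kainate NeuN- library with the highest summed astrocyte, microglia and oligodendrocyte markers. The summed endothelial markers ran the other way, at 29.0, 36.9 and 47.0 CPM in kainate NeuN- replicates 1, 2 and 3. Of the 10 astrocyte markers, 0 were called between kainate and sham in either fraction by edgeR or by DESeq2. Their median log2 fold change was -0.39 in NeuN+ and -1.03 in NeuN- nuclei, against -0.02 and 0.02 over all genes. At an unadjusted p under 0.05, 1 was higher and 1 lower in NeuN+ nuclei, and 2 were lower in NeuN- nuclei. The 6 microglia markers had a median of -0.79 in NeuN- nuclei, where edgeR called 0 of them, 1 was lower at an unadjusted p under 0.05 and DESeq2 called P2ry12 lower. In NeuN+ nuclei the summed microglia level was 63.5, 42.5 and 48.7 CPM in sham and 65.2, 63.5 and 68.0 CPM in kainate replicates 1, 2 and 3, higher in the kainate library of each number, and 1 of the 6 markers, Csf1r, was higher at an unadjusted p under 0.05 (1.14 ± 0.51, not called). The median was -0.70 for the 6 oligodendrocyte and -0.97 for the 4 oligodendrocyte precursor markers in NeuN- nuclei, and all of these had values below 0, with 0 called by edgeR or DESeq2 and 0 at an unadjusted p under 0.05. The summed level of 5 choroid plexus and ependymal markers was 43.0 and 28.9 CPM in sham NeuN- replicates 1 and 3, and 109, 59.5 and 31.3 CPM in kainate NeuN- replicates 1, 2 and 3, so it too was highest in kainate NeuN- replicate 1. In NeuN+ nuclei it was 1.48, 1.84 and 1.12 times as high in kainate as in sham replicates 1, 2 and 3. Most of this NeuN+ sum was Kl, with means of 28.2 CPM in sham and 45.1 CPM in kainate. Kl was itself called higher in NeuN+ than in NeuN- nuclei (edgeR). The NeuN+ log2 fold changes with kainate were 0.677 for Kl and 0.798 for Ttr. They were -0.357 for Folr1, -0.099 for Clic6 and -0.118 for Foxj1. In kainate NeuN- replicate 1 the sum was mostly Ttr, at 77.95 CPM. Only Foxj1 was lower with kainate in NeuN- nuclei, at -1.016. Of the 5 markers, 0 were called with kainate. The part of these other cell types in the metallothionein levels was not tested.

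**Figure D3:**
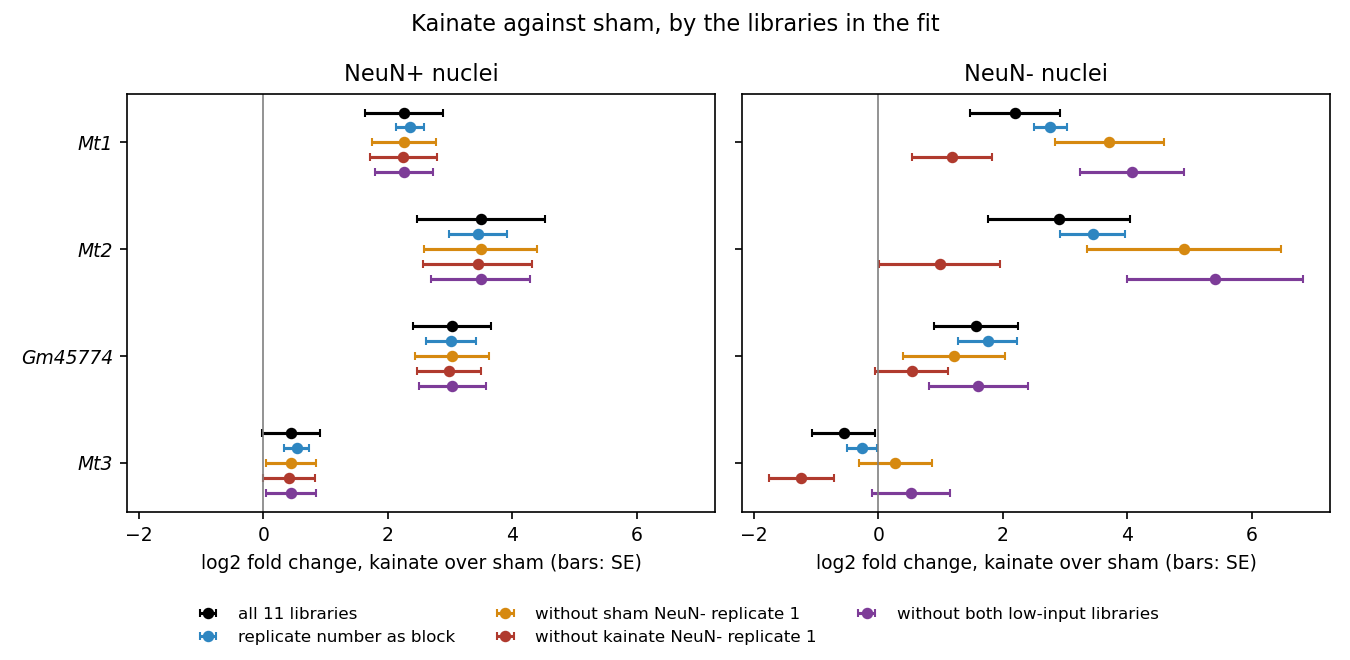
Log2 fold change of kainate over sham (points) with its SE (bars) for each gene in NeuN+ and NeuN- nuclei, for all 11 libraries and for 4 alternatives named in the legend. The 3 alternatives that leave libraries out remove NeuN- libraries only, so the NeuN+ estimates have little room to move, while those in NeuN- nuclei run from 1.19 to 4.08 for Mt1.

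The difference between the kainate effects of the fractions was within its error for Mt1, at 0.06 ± 0.89 on the log2 scale (NeuN+ minus NeuN-), and for Mt2, at 0.59 ± 1.38. It was 1.00 ± 0.69 for Mt3 and 1.47 ± 0.86 for Gm45774. Of the 4 genes 0 were called for this difference by edgeR or DESeq2 and 0 had an unadjusted p under 0.05, beside 0.00246% of all genes called higher. Nothing is read from these counts, because the difference is built from the 2 contrasts on which the genes were selected. For Mt1, an SE of this size leaves a difference in either direction possible, and the sign turned to -1.45 without sham NeuN- replicate 1 and to -1.81 without both low-input libraries. For Mt2 it turned to -1.42 and -1.92, and for Mt3 to -0.08 without both low-input libraries. Without kainate NeuN- replicate 1 the difference was 1.06 for Mt1, 2.46 for Mt2, 1.65 for Mt3 and 2.45 for Gm45774.

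Over both treatments, Mt1 was lower in NeuN+ than in NeuN- nuclei, with a log2 fold change of -1.67 ± 0.45 (FDR = 0.0186, edgeR quasi-likelihood test). Mt2 was lower as well, by -1.80 ± 0.71 on the log2 scale (FDR = 0.105), and so was Gm45774, at -0.94 ± 0.43 (FDR = 0.167). Mt3 was higher in NeuN+ nuclei, at 1.12 ± 0.36 (FDR = 0.0431). All 4 genes thus differed between the fractions at FDR below 0.25, where 16.8% of all genes were called higher and 20.4% lower in NeuN+ nuclei. The libraries of the fractions overlapped for each of the 4. The median log2 fold change of all genes was -0.47, so that relative to it Mt3 lay further from 0, and Mt1, Mt2 and Gm45774 nearer to 0, than these values.

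The fractions of a pool come from the same mice, and the ratios within each pool show how regular these differences were. The ratio of NeuN- to NeuN+ level of Mt1 was 3.38 and 1.72 in sham pools 1 and 3, and 6.15, 1.54 and 1.80 in kainate pools 1, 2 and 3. That of Mt3 was 0.613 and 0.450 in the sham pools, and 0.468, 0.214 and 0.263 in the kainate pools. So Mt1 was higher in the NeuN- nuclei of 5 of 5 pools, and Mt3 was lower in 5 of 5.

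The pools did not all share a direction for the overlapping genes. The ratio of Mt2 was 6.28 and 4.62 in sham pools 1 and 3, and 4.90, 0.847 and 1.19 in kainate pools 1, 2 and 3. That of Gm45774 was 2.08 and 4.25 in the sham pools, and 2.02, 0.503 and 0.749 in the kainate pools. Gm45774 was therefore higher in the NeuN- nuclei of both sham pools and of kainate pool 1, and lower in those of kainate pools 2 and 3. The astrocyte marker sum had ratios of 10.8 and 3.15 in the sham pools and 9.13, 3.82 and 1.30 in the kainate pools, and its smallest ratio, in kainate pool 3, was smaller than that of Mt1 in the same pool.

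**Figure D4:**
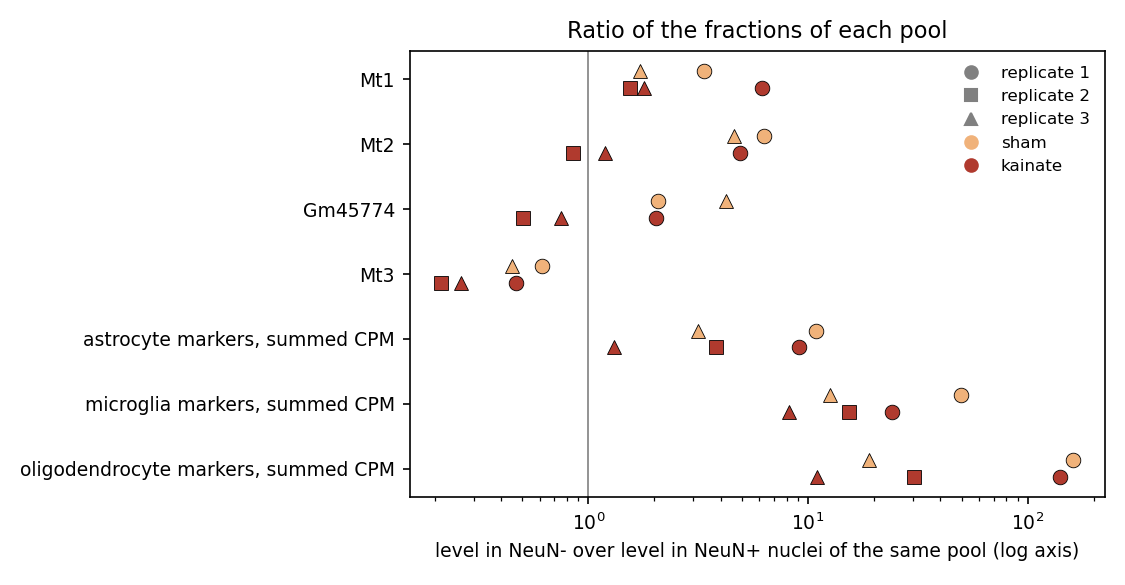
Ratio of the NeuN- to the NeuN+ level of the same pool (log axis) for each gene and for the summed CPM of 3 glial marker lists; symbols mark the replicate number and colours the treatment. Mt1 lies above 1 and Mt3 below 1 in all 5 pools, while the glial marker sums range from 1.30 to 161.

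With the pool as a block, all 4 genes were still called between the fractions, and 24.9% of all genes were called higher and 34.8% lower in NeuN+ nuclei. The log2 fold changes were -1.31 ± 0.29 for Mt1, -1.61 ± 0.48 for Mt2, -0.74 ± 0.37 for Gm45774 and 1.34 ± 0.20 for Mt3. Without the block, single libraries decided some calls. The call of Mt2 was lost without sham NeuN- replicate 1 (-0.79, FDR = 0.438 by edgeR) or kainate NeuN- replicate 1 (-0.93, FDR = 0.318). The call of Gm45774 was lost without kainate NeuN- replicate 1 (-0.41, FDR = 0.456), sham NeuN- replicate 3 (-0.67, FDR = 0.429) or kainate NeuN+ replicate 2 (-0.90, FDR = 0.290). Mt1 stayed called without each library, at -0.90 in the fit without sham NeuN- replicate 1, and so did Mt3, between 0.86 and 1.55.

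Levels of different genes were compared per kb of exonic sequence that no other gene shares. In sham NeuN+ nuclei Mt3 was the highest at 61.3 ± 27.7 (SD, n = 3) CPM per kb, followed by Mt1 at 11.4 ± 5.68, Mt2 at 1.78 ± 1.22 and Gm45774 at 0.310 ± 0.018. In kainate NeuN+ nuclei Mt3 was at 83.5 ± 9.26, Mt1 at 54.6 ± 9.10, Mt2 at 20.3 ± 7.85 and Gm45774 at 2.55 ± 0.332. On these lengths the order was Mt3, Mt1, Mt2 and Gm45774 in both NeuN+ groups, and the ranges of neighbouring genes did not overlap in either. In kainate NeuN- nuclei Mt1 came first at 170 ± 132 (n = 3), before Mt2 at 57.6 ± 70.5, Mt3 at 27.1 ± 14.8 and Gm45774 at 2.96 ± 2.55. There the range of Mt2 overlapped those of Mt1 and Mt3, while Mt1 and Mt3 did not overlap. In sham NeuN- nuclei Mt3 at 39.8 ± 24.1 (n = 2) and Mt1 at 36.9 ± 33.5 were within their spread of each other. Mt2 followed at 7.71 ± 8.21, overlapping Mt1, and Gm45774 at 0.987 ± 0.425, below all Mt2 values.

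The Mt2 value per kb rests on the assumption that only its 156 unshared bases were counted. If reads that touch both genes were dropped, a read had to lie wholly inside these bases. The usable length would then be shorter and the Mt2 value too low, by an amount that is not known. The place of Mt2 in the order is therefore not settled. Over its full exonic length Mt2 would be at 0.471 CPM per kb in sham NeuN+ and 5.37 in kainate NeuN+ nuclei. In sham NeuN+ nuclei its range, 0.110 to 0.732, would then overlap that of Gm45774, 0.248 to 0.277. In kainate NeuN- nuclei Mt2 would be at 15.3 CPM per kb, below Mt3 in place of above it. In raw counts, Mt1 exceeded Mt2 by 14.7 to 148 times in every library. The ratio of Gm45774 to Mt2 counts ranged from 0.606 to 10.5. It was highest in sham NeuN+ replicate 3, with 2 Mt2 counts, and sham NeuN- replicate 3, with 6. It was 2.545 in kainate NeuN+ replicate 2, with 77, and 2.2 in sham NeuN+ replicate 1, with 5. When Mt2 and Gm45774 were summed to 1 gene, the log2 fold change of the sum was 3.19 ± 0.67 in NeuN+ and 2.19 ± 0.74 in NeuN- nuclei. The sum, which does not depend on how the counted reads were split between them, was thus higher after kainate in both fractions, as a description.

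Across the 11 libraries, the log2 CPM of Mt1 and Mt2 had a Pearson r of 0.95, of Mt2 and Gm45774 0.87 and of Mt1 and Gm45774 0.82. Mt3 had an r of -0.10 with Mt1, 0.04 with Mt2 and 0.00 with Gm45774. These correlations describe libraries of 4 groups that share treatment and fraction, and Mt2 and Gm45774 also share sequence. After the mean of each fraction was removed, r was 0.96 for Mt1 and Mt2, and between 0.35 and 0.50 for Mt3 with the others.

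Among 24722 genes with a mean CPM of at least 1, and with the 4 genes themselves left out of the ranking, those whose log2 CPM over the 11 libraries was most like Mt1 were Cdkn1a (Pearson r = 0.96), an inhibitor of the cell cycle, Dusp1 (0.96), a phosphatase of MAP kinases, and Rbpj (0.96), the DNA-binding partner of Notch. For Mt2 they were Sertad1 (0.95), Csrnp1 (0.94), a nuclear protein, and Rbpj (0.94). For Gm45774 they were Sulf1 (0.92), an extracellular sulfatase, Cd300lb (0.90), a myeloid receptor, and Nedd9 (0.90), a scaffold protein. For Mt3 they were Hint2, Mdm1 and Cdk5rap1, each with r = 0.97. The choice was sensitive to the measure: by Spearman's rho, 0 of the 3 genes were shared for Mt1 and Mt3, and 1 of 3 for Mt2 and Gm45774.

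The genes that move zinc and copper in and out of cells were mostly without a call between kainate and sham. Of 35 genes of metal homeostasis (Mtf1, 10 zinc exporters of the Slc30a family, 14 zinc importers of the Slc39a family and 10 copper genes), 0 were called in NeuN+ nuclei by edgeR, 0 had an unadjusted p under 0.05 and 0 were called by DESeq2. The smallest p values there belonged to the zinc importers Slc39a10, at 0.63 ± 0.52 on the log2 scale, and Slc39a14, at 0.44 ± 0.38. Mtf1, the zinc sensor itself, had a log2 fold change of 0.21 in NeuN+ and -0.19 in NeuN- nuclei. The median of the list was 0.02 in NeuN+ and -0.06 in NeuN- nuclei, near that of all genes.

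In NeuN- nuclei 1 of the 35 was called higher and 0 lower by edgeR and by DESeq2. Beside this, edgeR called 0.0933% of all genes higher, and DESeq2 1.07% of the genes it gave an adjusted p. At an unadjusted p under 0.05, 2 more had lower values, the zinc exporter Slc30a10, at -1.46 ± 0.61 on the log2 scale, and the importer Slc39a12, at -1.66 ± 0.77. The gene called was Slc39a14, which encodes ZIP14, an importer of zinc, iron and manganese. Its level was 98.9 and 43.8 CPM in sham NeuN- replicates 1 and 3, and 454, 345 and 277 CPM in kainate NeuN- replicates 1, 2 and 3. Its groups were far apart, with a log2 fold change of 2.33 ± 0.46 (FDR = 0.215, edgeR), and its replicate 1 library was again the highest of each group. In NeuN+ nuclei Slc39a14 was at 117, 79.0 and 75.2 CPM in sham and 132, 116 and 121 CPM in kainate replicates 1, 2 and 3. The difference of the 2 effects was -1.89 ± 0.58 and did not pass the correction over all genes (edgeR). For this difference 0 of the 35 metal genes were called, as in 22 of 23 alternative fits, and at most 2 were called in any alternative. The call in NeuN- nuclei was lost without any 1 of 8 libraries, at FDR from 0.326 to 0.587 by edgeR: sham NeuN+ replicates 2 and 3, kainate NeuN+ replicates 1, 2 and 3, sham NeuN- replicate 1, and kainate NeuN- replicates 1 and 2. Its log2 fold change stayed between 1.85 and 3.06 with single libraries left out.

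With the replicate number as a block, 4 of the 35 were called in NeuN+ nuclei, 2 higher and 2 lower, beside 3.19% of all genes called higher and 1.9% lower. The 4 were zinc importers. Slc39a10, at 0.69 ± 0.20, and Slc39a14, at 0.47 ± 0.18, were higher. Slc39a12, at -0.83 ± 0.30, and Slc39a6, at -0.48 ± 0.18, were lower. None of the 4 had a call in NeuN+ nuclei without the block. In NeuN- nuclei 4 of the 35 were called with the block, beside 2.93% of all genes called higher and 2.86% lower. Slc39a14 at 2.43 ± 0.23 and the zinc exporter Slc30a4 at 1.00 ± 0.24 were higher, and Slc30a10 at -1.33 ± 0.33 and Slc39a12 at -1.65 ± 0.30 were lower.

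Of 8 oxidative stress genes, 1 was called higher in NeuN+ nuclei, beside 0.157% of all genes. It was Srxn1, which encodes sulfiredoxin, the enzyme that restores oxidised peroxiredoxins. Its level was 51.8, 23.9 and 28.2 CPM in sham NeuN+ replicates 1, 2 and 3, and 147, 125 and 138 CPM in kainate NeuN+ replicates 1, 2 and 3. The groups were well separated, with a log2 fold change of 1.98 ± 0.36 (FDR = 0.137, edgeR). The call was lost without sham NeuN+ replicate 2 or 3, any 1 of kainate NeuN+ replicates 1, 2 and 3, or kainate NeuN- replicate 2, at FDR from 0.281 to 0.983 (edgeR), while the log2 fold change stayed between 1.77 and 2.39. In NeuN- nuclei Srxn1 was at 18.9 and 11.8 CPM in sham replicates 1 and 3 and 65.9, 60.8 and 67.9 CPM in kainate replicates 1, 2 and 3. There its log2 fold change was 2.08 ± 0.43 with an FDR of 0.2501 (edgeR), just past the threshold, and 0 of the 8 genes were called by edgeR. At an unadjusted p under 0.05, 2 were higher, beside 1.35% of all genes, and DESeq2 called Srxn1. With the replicate number as a block 4 of the 8 were called in NeuN- nuclei, beside 2.93% of all genes called higher and 2.86% lower. Srxn1 at 2.16 ± 0.25, Hmox1 at 1.69 ± 0.37 and the thioredoxin reductase Txnrd1 at 0.74 ± 0.23 were higher, and Slc7a11 at -0.67 ± 0.25 was lower. Hmox1, heme oxygenase 1, had a log2 fold change of 1.57 ± 0.54 in NeuN- and 0.72 ± 0.47 in NeuN+ nuclei, without a call when the block was left out.

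Of 4 further regulators of metallothionein transcription, Nr3c1 (the glucocorticoid receptor), Stat3, Nfe2l2 (NRF2) and Usf1, 0 were called in either fraction by edgeR or DESeq2, and 1, Stat3, had an unadjusted p under 0.05 in each. Stat3 was at 41.8, 92.4 and 36.7 CPM in sham and 148, 163 and 136 CPM in kainate NeuN+ replicates 1, 2 and 3. It was at 175 and 61.0 CPM in sham NeuN- replicates 1 and 3, and 570, 379 and 202 CPM in kainate NeuN- replicates 1, 2 and 3. In both fractions the kainate libraries lay above the sham libraries, with log2 fold changes of 1.39 ± 0.50 and 1.70 ± 0.59. The gene with the next smallest p was Nfe2l2 in NeuN+ nuclei, at -0.70 ± 0.63. With the replicate number as a block, Stat3 was called higher in NeuN+ nuclei, at 1.51 ± 0.19, and in NeuN- nuclei, at 1.72 ± 0.24, and Nfe2l2 lower in NeuN+ nuclei, at -0.71 ± 0.27.

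**Figure D5:**
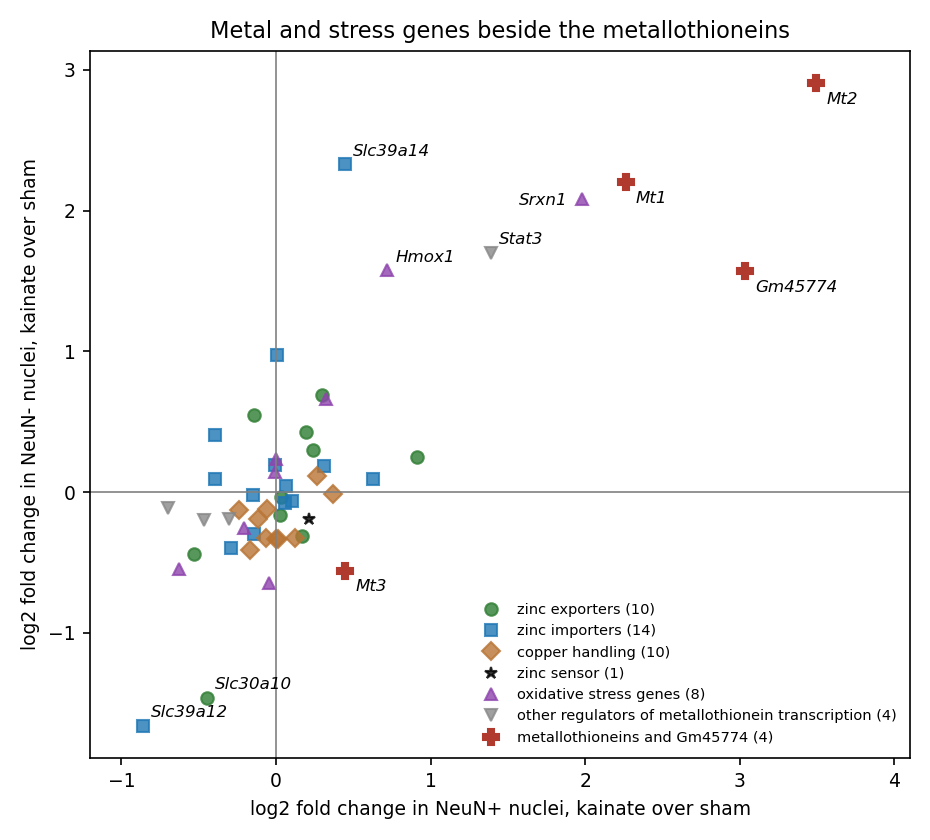
Log2 fold change of kainate over sham in NeuN+ nuclei (x axis) and in NeuN- nuclei (y axis) for the metal homeostasis, oxidative stress and regulator genes and for the metallothioneins and Gm45774. Most genes of metal homeostasis lie near 0 on both axes, and Slc39a14 lies at 0.44 and 2.33.

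Between the fractions, 4 of the 35 metal genes were higher and 10 lower in NeuN+ nuclei (edgeR, FDR below 0.25), against a background of 16.8% and 20.4%. Slc30a3, which encodes ZnT3, the transporter that loads zinc into synaptic vesicles, was higher at 3.43 ± 0.42 on the log2 scale, as was the importer Slc39a2 at 2.21 ± 0.30. Slc39a12, the importer ZIP12, was lower at -4.17 ± 0.58, and Cp, which encodes the copper-carrying ferroxidase ceruloplasmin, was lower at -2.98 ± 0.40. For these 4 genes the libraries of the fractions did not overlap. The importers Slc39a11, at 1.08 ± 0.30, and Slc39a10, at 1.17 ± 0.40, were also higher. Lower were the importers Slc39a8 at -1.24 ± 0.32, Slc39a1 at -1.01 ± 0.46 and Slc39a14 at -0.60 ± 0.28, and the exporters Slc30a7 at -0.55 ± 0.25 and Slc30a8 at -1.58 ± 0.84. The mean level of Slc39a14 was lower in NeuN+ than in NeuN- nuclei after kainate, at 123 against 359 CPM, but not after sham, at 90.3 against 71.3 CPM. Of the copper genes, the pump Atp7a at -1.36 ± 0.33, Slc31a2 at -0.82 ± 0.36 and Commd1 at -0.57 ± 0.23 were lower. With the pool as a block 25 of the 35 were called, beside 24.9% of all genes called higher and 34.8% lower. Of the regulators, Nfe2l2 was lower in NeuN+ nuclei at -3.61 ± 0.49, Stat3 at -1.21 ± 0.37 and Nr3c1 at -1.03 ± 0.40. Of the oxidative stress genes 3 were higher, Srxn1 at 1.12 ± 0.27, Gclc, a subunit of the enzyme that starts glutathione synthesis, at 0.64 ± 0.32, and Sod2, the mitochondrial superoxide dismutase, at 0.64 ± 0.33. The other 3 were lower, Slc7a11, the cystine importer, at -2.76 ± 0.54, Hmox1 at -1.24 ± 0.35 and the quinone reductase Nqo1 at -0.96 ± 0.38.

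Neighbours of the cluster on chromosome 8 were not called with kainate. Of Nudt21, Ogfod1, Bbs2, Nup93, Slc12a3 and Herpud1, 0 were called in either fraction by edgeR or DESeq2, and 0 had an unadjusted p under 0.05. Their log2 fold changes ran from -0.20 to 0.56 in NeuN+ and from -0.69 to 0.44 in NeuN- nuclei. The highest value was that of Slc12a3 in NeuN+ nuclei and the lowest that of Bbs2 in NeuN- nuclei, which was called lower there with the replicate number as a block, at -0.64 ± 0.25. Nup93, the nearest of these past Mt1, was at 0.30 ± 0.29 in NeuN+ and 0.44 ± 0.33 in NeuN- nuclei. Between the fractions, Nup93 at 1.45 ± 0.23, Ogfod1 at 1.36 ± 0.31 and Bbs2 at 0.65 ± 0.27 were higher in NeuN+ nuclei. Mt4, the metallothionein of stratified epithelia at the other end of the cluster, had 0 to 35 counts per library and was called in no comparison.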

How the data were processed

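Reads were trimmed by the authors with Trim Galore 0.4.3 and aligned with Rsubread, whose featureCounts function gave, for each gene of GENCODE mouse release 16 (mm10), the number of uniquely mapping reads. The deposited values used are these raw counts for 53379 genes in 11 mRNAseq libraries; the 11 bisulfite samples were not used here. Members and gene lists were chosen with earlier results of these data known.

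Symbols and positions came from GENCODE M21. Genes without a symbol (105) were left out. edgeR 4.0.16 (R 4.3.3) with filterByExpr (minimum count 10) kept 40714 genes. Counts were TMM-scaled and fitted by the quasi-likelihood method (legacy=TRUE) to 4 group means. Genes were called at FDR below 0.25 (Benjamini-Hochberg, all genes tested). CPM use TMM factors. DESeq2 1.42.0 was an alternative. The fit was tested on simulated data. Named genes of the lists are those called in a comparison, or the 2 with the smallest p; 1 gene of the list of neighbours is not reported here.

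Replicates are pools of hippocampi, and duplicates from PCR, unmarked by molecular identifiers, limit the precision of low counts. Libraries were sequenced in 2 pools whose members are not given in the sources used here, so no value within a sequencing pool could be computed. Deviations of libraries of one replicate number from their group means had correlations of 0.64, 0.16 and 0.49 in NeuN+ nuclei, and the fractions of one pool 0.24 to 0.67. Deviations within a group sum to 0, so these values are not independent, and libraries of different numbers were not compared.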

Additional observations from a re-analysis of the deposited data

How the results depend on the processing

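The log2 fold changes of all 4 genes in NeuN+ nuclei moved by less than the replicate spread under every alternative run. In NeuN- nuclei, without both low-input libraries, they were 4.08 for Mt1, 5.41 for Mt2 and 0.52 for Mt3, and the differences between fractions were -1.81, -1.92 and -0.077; the cause was not tested. With single libraries left out, the NeuN- values ranged from 1.19 to 3.71 for Mt1, 0.99 to 4.92 for Mt2, -1.23 to 0.28 for Mt3 and 0.54 to 2.09 for Gm45774, and the differences from -1.45 to 1.06, -1.42 to 2.46, 0.17 to 1.65 and 0.95 to 2.45. The sign of Mt3 turned without sham NeuN- replicate 1 (0.28), as did the differences of Mt1 (-1.45) and Mt2 (-1.42). Between the fractions, Mt2 was at -1.04 without both low-input libraries, where its call was lost, and ranged from -2.21 to -0.79 with single libraries left out, Gm45774 from -1.29 to -0.41.

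Counts of calls depended on the fit far more. In NeuN+ nuclei 67 genes were called in all and 1 of the 4. DESeq2 called 360 and 3, a minimum of 1 CPM in 3 libraries 137, separate fits 390 and 3, legacy=FALSE 140, low input as a covariate 41, FDR below 0.05 8 and 0, and the fit without both low-input libraries 92 and 2. In NeuN- nuclei 41 genes were called and 0 of the 4. DESeq2 called 254 and 1, the 1 CPM minimum 67, separate fits 0, legacy=FALSE 74, low input as a covariate 22, FDR below 0.05 1, and the fit without both low-input libraries 1. The 1 metal gene called there was lost (0) with no filter, separate fits, FDR below 0.05, the low-input covariate, or the low-input libraries left out. Between the fractions, FDR below 0.05 left 6983 of 15159 genes, 2 of the 4 and 7 of the 14 metal genes. With single libraries left out, the counts ranged from 5 to 176 in NeuN+ nuclei (0 to 2 of the 4; 0 metal genes), from 1 to 2812 in NeuN- nuclei (0 of the 4; 0 to 3 metal genes) and from 11200 to 26560 between the fractions (2 to 4 of the 4; 10 to 18 metal genes).

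With a replicate block in each fraction, 2072 genes were called in NeuN+ nuclei, with 4 of the 4 and 4 metal genes, and 2357 in NeuN- nuclei, with 3 of the 4 and 4 metal genes. In NeuN- nuclei only 2 pairs had both treatments, and their deviations had correlations of 0.76 and 0.79. With 2 sham libraries the sham deviations mirror each other by construction, so these values are not independent checks of the pairing. With the pool as a block, 24313 genes differed between the fractions, with 4 of the 4 and 25 metal genes. Between kainate effects of the fractions, 0 of the 4 genes were called with either block, as without.

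The number of pools limits the precision, most in sham NeuN- nuclei with 2, where leaving 1 out assumes that the other varies like the remaining groups. Mt2 is further limited by its low counts.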
